A study of Mus musculus with 8 samples.

Results

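A set of 9 genes that mark the capillaries of the mouse lung was followed in cells sorted by their retention of QZ1, a Cy5-labelled peptide probe that is activated by proteases. The set held 6 markers of aerocytes (Car4, Ednrb, Fibin, Prx, Tbx2 and Apln) and 3 markers of general capillary cells (Plvap, Aplnr and Kit). They were chosen by name, with earlier results of these data known, and looked up by Entrez gene ID. All 9 were found among the 27179 genes of the count table. The lungs came from C57BL/6 mice (C57BL/6J in the study's methods) of 18 to 22 weeks that carried tumors driven by an Eml4-Alk rearrangement, induced 11 to 12 weeks earlier with an adenovirus carrying Cas9 and guide RNAs. Every mouse received 4.5 nmol QZ1-(PEG2K) through the tail vein 2 h before the lungs were taken, and live CD45- CD11b- cells were sorted into a QZ1-hi and a QZ1-lo population. Bulk RNA-seq libraries were made from 4 samples of each population. The populations were gated on probe signal, with no capillary marker in the gate, no unsorted or healthy lung was analysed here, and the purity of the fractions was not assessed in the study. Lung suspensions were sorted into both populations, but neither the labels nor the methods say which libraries came from the same mouse. The replicate numbers only name the libraries of a population and pair none across populations, every test treats the 8 libraries as independent, and the p-values measure the spread between these libraries.

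The alveolar capillary bed is built from a pair of intermingled endothelial cell types. Aerocytes are thin, extended cells at the gas exchange surface that express the ligand apelin, and general capillary cells carry its receptor, regulate vessel tone and act as progenitors in repair. Most markers of either type are also used by other cells of the lung.

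The libraries held 18380918 to 26847938 counts, and levels are given as CPM, counts scaled to a common library total, after trimmed mean of M values (TMM) scaling, whose factors ran from 0.660 to 1.35. Mitochondrial and ribosomal RNA genes took 43.7 to 65.6% of the counts in QZ1-hi and 34.0 to 53.2% in QZ1-lo. All 16 pan-endothelial genes (such as Pecam1 and Cdh5) were higher in QZ1-hi, with a median log2 fold change of 3.28 and a range of 1.73 to 4.00. Their summed level was 867 to 2080 CPM in QZ1-hi and 76.4 to 298 CPM in QZ1-lo, where replicate 3 was the highest. In bulk samples such as these, fewer cells of a type and less RNA per cell cannot be told apart.

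Of the 9 capillary markers, 8 were higher in QZ1-hi than in QZ1-lo and none was lower (edgeR quasi-likelihood test, Benjamini-Hochberg adjusted p under 0.05). Both classes rose, with 5 of 6 aerocyte markers and 3 of 3 general capillary markers called, where 9.88% of all 15583 genes tested were called higher and 8.21% lower. The median log2 fold change was 2.94 over the aerocyte markers and 3.12 over the general capillary markers, beside 0.02 over all genes tested. Scaling by library size only shifted that last median to -0.44 and turned the calls over all genes from 1540 higher and 1280 lower into 883 and 2509, but left 8 markers called higher. In 7 of the 9 genes every QZ1-hi library lay above every QZ1-lo library, which was so for 11.9% of all genes tested. Car4 was the 1 marker not called in this unpaired test, with a difference of 0.99 on the log2 scale. Without QZ1-hi replicate 3, QZ1-lo replicate 1 or QZ1-lo replicate 2 the number of markers called fell to 5, since Ednrb, Fibin and Apln each lost their call in those fits. All 9 genes passed the filter on low counts, but Ednrb and Fibin fell below 10 counts in 1 and 2 QZ1-lo libraries, respectively.

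**Figure D1:**
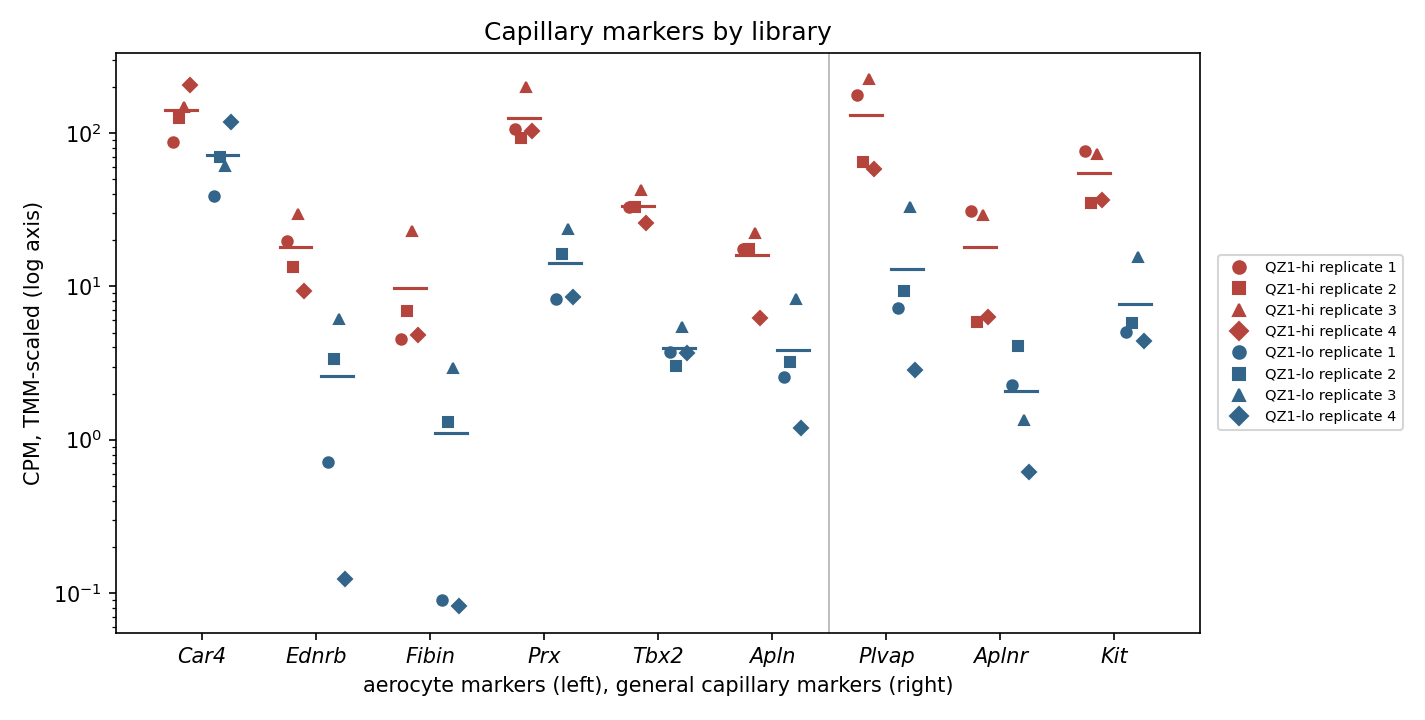
TMM-scaled CPM (log axis) of the 6 aerocyte markers (left of the line) and the 3 general capillary markers (right) in each of the 8 libraries, in red for QZ1-hi and blue for QZ1-lo. Horizontal bars are the means of 4 libraries. Red and blue points are apart in 7 genes and overlap in Car4 and Apln.

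Car4 encodes carbonic anhydrase 4, a membrane-anchored enzyme on the luminal face of lung capillaries that interconverts carbon dioxide and bicarbonate. The gene (Entrez 12351) is on the plus strand of chromosome 11 at chr11:84957786-84966044 (GRCm38). It stood at 88.1, 127, 149 and 208 CPM in QZ1-hi replicates 1 to 4 and at 39.0, 69.8, 60.8 and 118 CPM in QZ1-lo replicates 1 to 4. The populations overlapped, since QZ1-lo replicate 4 lay above QZ1-hi replicate 1. The means were 143 ± 50.04 and 71.9 ± 33.4 CPM (SD, n = 4 each), and the fitted difference was 0.99 on the log2 scale (SE 0.32, 95% interval 0.28 to 1.70), with an edgeR adjusted p of 0.0567. The call depended on the test. Car4 passed with the DESeq2 Wald test (adjusted p = 0.0129), with limma voom and sample quality weights (adjusted p = 0.0376) and in edgeR with no filter on low counts (adjusted p = 0.0365), and with scaling by library size only its log2 fold change was 0.49 (edgeR adjusted p = 0.216). Its log2 fold change ran from 0.78 to 1.34 when single libraries were left out, and in edgeR it passed without QZ1-lo replicate 4 (adjusted p = 0.0099) and without QZ1-hi replicate 1 (adjusted p = 0.0323).

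Among the other aerocyte markers, Prx and Tbx2 differed most firmly. Prx encodes periaxin, a scaffold protein best known from myelinating Schwann cells (Entrez 19153, plus strand, chr7:27499324-27520214). Its level was 106, 93.5, 200.0 and 104 CPM in QZ1-hi replicates 1 to 4, against 8.34, 16.4, 23.7 and 8.55 CPM in QZ1-lo replicates 1 to 4. The populations did not overlap, and QZ1-hi replicate 3 was well above the rest. The log2 fold change of Prx was 3.14 (SE 0.37), an 8.83-fold higher level, with an edgeR adjusted p of 0.000368. An antisense gene, Gm15541, overlaps 5.38% of the exonic bases of Prx, and the strand setting of the counting is not given in the sources used here. Tbx2 encodes a T-box transcription factor of developing and adult lung mesenchyme and of aerocytes (Entrez 21385, plus strand, chr11:85832551-85841948). It was at 33.0, 33.0, 42.5 and 26.1 CPM in QZ1-hi replicates 1 to 4 and at 3.72, 3.01, 5.42 and 3.68 CPM in QZ1-lo replicates 1 to 4. Tbx2 had the least spread of the 9 genes, with coefficients of variation of 19.9% (QZ1-hi) and 26.0% (QZ1-lo), and its populations stood far apart. Its log2 fold change was 3.08 (SE 0.22, edgeR adjusted p = 7.47e-05).

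Ednrb and Fibin showed folds of like size on far fewer reads. Ednrb encodes the type B receptor for endothelins (Entrez 13618, minus strand, chr14:103814625-103844402). Its levels were 19.7, 13.4, 29.7 and 9.35 CPM in QZ1-hi replicates 1 to 4, and 0.715, 3.37, 6.15 and 0.123 CPM in QZ1-lo replicates 1 to 4. No QZ1-lo library reached the lowest QZ1-hi library, and QZ1-lo replicate 4 held 3 reads of the gene. Ednrb differed by 2.80 on the log2 scale (SE 0.78, edgeR adjusted p = 0.0276). Fibin, a secreted protein first described in the developing fin bud (Entrez 67606, minus strand, chr2:110360917-110363183), was at 4.57, 6.96, 22.9 and 4.82 CPM in QZ1-hi replicates 1 to 4. In QZ1-lo replicates 1 to 4 it was at 0.0894, 1.30, 2.93 and 0.0818 CPM, of which replicates 1 and 4 rested on 3 and 2 reads. The populations were again apart, but QZ1-hi replicate 3 alone was several times the other QZ1-hi libraries. The log2 fold change of Fibin was 3.15 (SE 0.93, edgeR adjusted p = 0.0377) and 2.30 without QZ1-hi replicate 3 (edgeR adjusted p = 0.144). With robust shrinkage of the dispersions neither gene was called (edgeR adjusted p = 0.0793 for Ednrb and 0.0880 for Fibin).

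The apelin ligand and its receptor, which in the lung mark opposite capillary types, were both higher in QZ1-hi. Apln, the ligand and aerocyte marker (Entrez 30878, minus strand, chrX:48025146-48034853), was at 17.7, 17.5, 22.5 and 6.25 CPM in QZ1-hi replicates 1 to 4. It was at 2.56, 3.21, 8.32 and 1.19 CPM in QZ1-lo replicates 1 to 4, so QZ1-hi replicate 4 lay below QZ1-lo replicate 3. Apln differed by 2.06 on the log2 scale (SE 0.54, edgeR adjusted p = 0.0206). Aplnr, the receptor and general capillary marker (Entrez 23796, plus strand, chr2:85136225-85139923), was at 31.1, 5.87, 29.3 and 6.31 CPM in QZ1-hi replicates 1 to 4 and at 2.26, 4.11, 1.34 and 0.613 CPM in QZ1-lo replicates 1 to 4. Its populations did not overlap, although the QZ1-hi libraries split into a high and a low pair. The log2 fold change was 3.12 (SE 0.67, edgeR adjusted p = 0.00779). Apela, the other ligand of the receptor, had no read in any library, where 3 counts would give 0.0894 to 0.179 CPM.

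Plvap and Kit completed the general capillary markers. Plvap encodes the protein of the diaphragms of caveolae and fenestrae (Entrez 84094, minus strand, chr8:71497765-71511752). It was at 177, 64.6, 225 and 58.3 CPM in QZ1-hi replicates 1 to 4 and at 7.24, 9.35, 32.9 and 2.86 CPM in QZ1-lo replicates 1 to 4. There was no overlap, and replicates 1 and 3 were the high libraries of QZ1-hi. With a log2 fold change of 3.32 (SE 0.69, edgeR adjusted p = 0.00657), Plvap was higher by an amount whose interval overlapped those of the other 7 markers called. Kit encodes the receptor tyrosine kinase for stem cell factor (Entrez 16590, plus strand, chr5:75574916-75656722). It was at 76.6, 35.1, 73.3 and 36.6 CPM in QZ1-hi replicates 1 to 4 and at 5.03, 5.73, 15.6 and 4.38 CPM in QZ1-lo replicates 1 to 4. The populations were apart, and QZ1-lo replicate 3 was the high library of its population. The log2 fold change of Kit was 2.85 (SE 0.43, edgeR adjusted p = 0.00114).

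For a single gene in 4 against 4 libraries, the two-sided exact permutation test of mean log2 CPM over 70 assignments gave p = 0.0286, the smallest it can give, for each of the 7 genes without overlap. For Car4 and for Apln the exact permutation p was 0.0571.

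Levels can be ranked between genes only per length, here as CPM per kilobase of exonic sequence. In QZ1-hi the mean was highest for Car4 (72.6 ± 25.5, SD, n = 4) and Plvap (65.95 ± 41.7, SD, n = 4), followed by Prx at 22.6, Tbx2 at 9.28, Kit at 6.22, Apln at 5.07, Aplnr at 4.91, Fibin at 4.33 and Ednrb at 4.23. The ranges of neighbours in this order overlapped except between Prx and Tbx2. In QZ1-lo the mean for Car4 was 36.6 ± 17.0 (SD, n = 4), ahead of Plvap at 6.59, Prx at 2.55, Apln at 1.21, Tbx2 at 1.09, Kit at 0.863, Ednrb at 0.607, Aplnr at 0.562 and Fibin at 0.485. There the ranges of Car4 and Plvap were apart, and those of the other neighbours overlapped. Car4 was thus first of the 9 genes per length in both populations, but level with Plvap in QZ1-hi and clear of it in QZ1-lo.

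The balance between the capillary types was read in each library as the mean log2 CPM of the 6 aerocyte markers minus that of the 3 general capillary markers. This difference was -1.41, 0.31, -0.60 and -0.03 in QZ1-hi replicates 1 to 4 and -0.68, 0.01, 0.20 and 0.17 in QZ1-lo replicates 1 to 4. The populations overlapped, with means of -0.43 ± 0.75 and -0.07 ± 0.41 (SD, n = 4 each). With Car4 left out, the means were -0.85 ± 0.68 in QZ1-hi and -0.85 ± 0.48 in QZ1-lo. Without Car4 the mean difference was thus the same to 2 decimals in both populations, while single libraries ranged from -1.74 to -0.11. In single QZ1-lo libraries Ednrb and Fibin held only 2 or 3 reads, so the values there depend in part on the prior count of 2 used for log2 CPM. The differences between the marker classes are a description and were not tested.

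A second fit scaled every library to the pan-endothelial genes, which compares a marker with the endothelial RNA of its own library. On that scale 93.6% of all genes tested were lower in QZ1-hi and 0.0513% higher, with a median log2 fold change of -3.44, because the scaling genes are themselves high there. Of the 9 markers, 1 was called lower (Car4) and none higher. The log2 fold change of Car4 relative to endothelial genes was -2.57 (95% interval -3.80 to -1.33, edgeR adjusted p = 5.91e-05). For the other 8 it lay between -1.03 (Apln, 95% interval -2.31 to 0.26, edgeR adjusted p = 0.122) and 0.24 (Plvap, 95% interval -0.90 to 1.37, edgeR adjusted p = 0.694). Their SEs were 0.58 to 0.85, so changes of the size seen in Apln were not separable from none. Prx (-0.16), Ednrb (-0.17), Fibin (0.23), Tbx2 (-0.34), Kit (-0.40) and Aplnr (-0.58) also missed the threshold, with the estimates given on the log2 scale. Car4 was not alone among capillary genes on this scale. Of the other aerocyte genes listed below, 5 of 7 tested were called lower (median -2.04). Of the other general capillary genes, 4 of 8 were called lower (median -1.31), as were 2 of the 16 pan-endothelial genes.

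In single libraries the gap between the mean ratios was widest for Car4, but its ratios overlapped between the populations. The log2 ratio of Car4 to the mean of the 16 endothelial genes was 0.47, 1.79, 0.93 and 2.57 in QZ1-hi replicates 1 to 4 and 3.27, 3.88, 2.34 and 5.43 in QZ1-lo replicates 1 to 4. These ranges met only between QZ1-hi replicate 4 and QZ1-lo replicate 3, the QZ1-lo library with the most endothelial RNA. Kit was the one marker whose ratios did not overlap, at -0.09 to 0.27 in QZ1-hi and 0.29 to 0.71 in QZ1-lo. For 85.4% of all genes tested the QZ1-hi ratios likewise lay below every QZ1-lo ratio. Apln had ratios of -2.47 to -1.06 in QZ1-hi and -1.11 to -0.52 in QZ1-lo, which met only between QZ1-hi replicate 2 and QZ1-lo replicate 4. The ratio of Prx was 0.74 to 1.57 in QZ1-hi and 0.98 to 1.79 in QZ1-lo, and that of Plvap was 0.74 to 1.53 and 0.11 to 1.45.

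**Figure D2:**
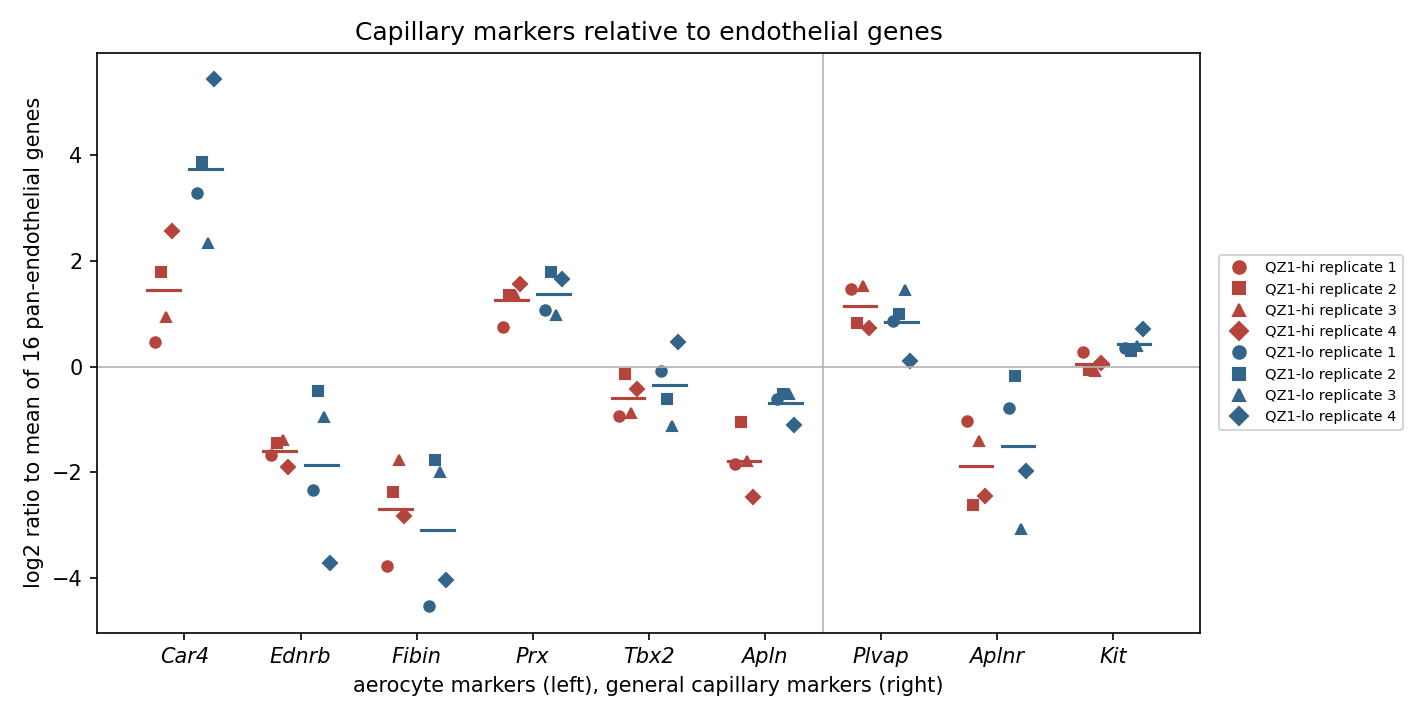
Log2 ratio of each capillary marker to the mean log2 CPM of 16 pan-endothelial genes in the same library, in red for QZ1-hi and blue for QZ1-lo, with bars at the means of 4 libraries. Car4 is the marker with the widest gap between the means, 1.44 in QZ1-hi and 3.73 in QZ1-lo.

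Further capillary genes were read from a pair of lists of 8 genes each that share no gene with the 9 markers. Of the 7 other aerocyte genes that passed the filter, 4 were higher in QZ1-hi and 1 was lower, with a median log2 fold change of 1.45. Those that rose were Chst1 (2.73, edgeR adjusted p = 0.00877), Kdr, the main receptor for vascular endothelial growth factor (2.54, edgeR adjusted p = 0.00138), Pmp22 (1.66, edgeR adjusted p = 0.000548) and the co-receptor Nrp1 (1.45, edgeR adjusted p = 0.000397). Emp2, a membrane protein that is also abundant in alveolar type 1 cells, was lower, at 283 ± 45.2 CPM in QZ1-hi and 400.1 ± 46.3 CPM in QZ1-lo (SD, n = 4; log2 fold change -0.50, edgeR adjusted p = 0.0348). The call of Emp2 was lost in 6 of 8 fits that left out 1 library (without QZ1-hi replicate 1, 2 or 4 or QZ1-lo replicate 1, 3 or 4; edgeR adjusted p 0.0286 to 0.102 over the 8). Alveolar type 1 markers moved the same way as Emp2, with 5 of 7 lower and 1 higher and a summed level of 728 to 1094 CPM in QZ1-hi and 1380 to 1730 CPM in QZ1-lo; their part in the result was not tested. Cyp4b1 (0.21) and Sirpa (0.47) were not called, and Rprml was too low to test. Of the 8 other general capillary genes, 6 were higher and none was lower, with a median of 2.20. They were the angiopoietin receptor Tek (3.79, edgeR adjusted p = 0.000298), Gpihbp1, which anchors lipoprotein lipase on capillaries (3.46, edgeR adjusted p = 0.000547), the endothelial phosphatase Ptprb (3.45), Cd93 (2.39), the semaphorin Sema3c (2.01) and the fatty acid receptor Cd36 (1.36). Lpl (0.50) and Hilpda (0.73) were not called.

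**Figure D3:**
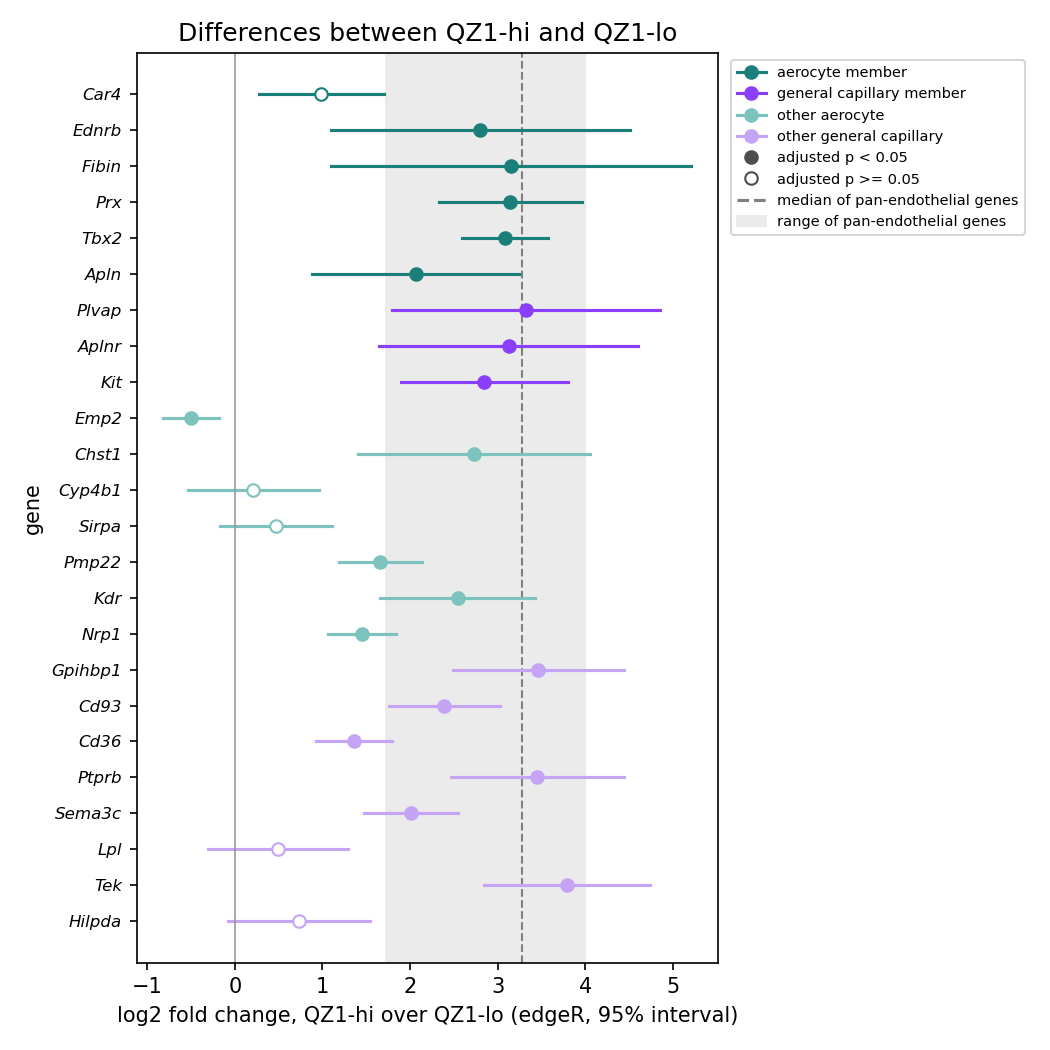
Log2 fold changes of QZ1-hi over QZ1-lo with 95% intervals from edgeR for the 9 capillary markers and the 15 other capillary genes tested. Filled points passed an adjusted p under 0.05, the dashed line is the median of the 16 pan-endothelial genes (3.28) and the grey band their range (1.73 to 4.00). Of the 9 markers, Car4 alone has its estimate left of the band.

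Ligands, receptors and relatives of the markers did not all move with them. Kitl, the ligand of Kit, was higher in QZ1-hi, at 54.9, 60.9, 86.3 and 38.2 CPM in QZ1-hi replicates 1 to 4 and 7.92, 11.5, 19.6 and 6.83 CPM in QZ1-lo replicates 1 to 4 (log2 fold change 2.39, edgeR adjusted p = 0.000839). In the endothelin pathway 2 of 6 genes tested were higher, the receptors Ednrb and Ednra, and none was lower. Ednra, the type A receptor of smooth muscle and pericytes, had a log2 fold change of 2.64 (edgeR adjusted p = 0.0116). The ligands Edn1 (-0.14) and Edn3 (-0.38) and the converting enzymes Ece1 (0.03) and Ece2 (1.17, edgeR adjusted p = 0.113) were not called, although Ece2 passed with limma voom (adjusted p = 0.0489) and without QZ1-lo replicate 3 (edgeR adjusted p = 0.0427). Another ligand, Edn2, was too low to test, with no read in QZ1-hi and 0, 12, 15 and 1 reads in QZ1-lo replicates 1 to 4. Endothelin receptors were thus higher in QZ1-hi while no difference was detected in the ligands tested, Edn1 and Edn3.

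Of the 7 T-box genes tested, 4 were higher and 1 was lower, with a median log2 fold change of 2.60. Beside Tbx2, Tbx3 was higher by 3.12 (edgeR adjusted p = 0.00025), Tbx4 by 2.45 (edgeR adjusted p = 0.00311) and Tbx5 by 2.60 (edgeR adjusted p = 0.0168), all factors of the lung mesenchyme. Tbx1 was lower (-1.14, edgeR adjusted p = 0.0321), but not with limma voom (adjusted p = 0.0704) nor in 5 of 8 edgeR fits that left out 1 library (without QZ1-hi replicate 1, 3 or 4 or QZ1-lo replicate 2 or 3; adjusted p 0.0135 to 0.103 over the 8). Tbx5 lost its call without QZ1-hi replicate 3 (edgeR adjusted p = 0.0551). Tbx18 (2.80, edgeR adjusted p = 0.0890) was not called except with DESeq2 (adjusted p = 0.0184) and without QZ1-hi replicate 1 (edgeR adjusted p = 0.0417), and Tbx6 (-0.40) was not called. Of the 7 carbonic anhydrases tested, only Car14 was called, with a log2 fold change of 3.15 (edgeR adjusted p = 0.0108) at 5.66 ± 2.60 and 0.636 ± 0.653 CPM (SD, n = 4). Car2 (-0.10), Car5b (0.27), Car8 (-0.52), Car9 (0.68) and Car13 (0.44) were, like Car4, not called, although Car8 passed as lower with scaling by library size only (edgeR adjusted p = 0.0216) and without QZ1-hi replicate 1 (edgeR adjusted p = 0.0452).

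Other cell types that use these genes were measured through their own markers. Fibroblast markers were higher for 9 of 10 genes (median log2 fold change 3.21), with summed levels of 1999 to 3375 CPM in QZ1-hi and 567 to 1037 CPM in QZ1-lo. Fn1 held the most reads of the 10 in every library. It had 15940 to 37058 reads in QZ1-hi and 11968 to 31235 in QZ1-lo, against 6128 to 13530 and 262 to 2530 for Col1a1. Of the pericyte markers, 4 of 8 were higher (median 2.44), with summed levels of 194 to 336 CPM in QZ1-hi and 22.9 to 70.7 CPM in QZ1-lo. Tbx2 and Ednrb are also expressed by such mesenchymal cells, and the part of these cells in their difference was not tested. For Kit, no mast cell marker passed the filter, the defining Ms4a2 and Fcer1a had no read in any library, and the 6 mast cell markers summed to at most 4.87 CPM. That sum was in QZ1-hi replicate 1, which also had the highest Kit, and every other library had at most 0.834 CPM. The part of mast cells in Kit was not tested. For Prx, 4 of 7 Schwann cell markers were tested, none was higher and 1 was lower, and Cdh19 had no read. The sums were 52.8 to 80.1 CPM in QZ1-hi and 69.4 to 78.4 CPM in QZ1-lo. Mbp and Egr2 together held most of these reads in every library, and Sox10 had at most 9 reads in a library. For Ednrb and Kit, 2 of 5 melanocyte markers were tested and none was called, Dct had no read, and Tyr had at most 1 read in a library. The melanocyte sums were 18.1 to 39.5 CPM in QZ1-hi and 10.7 to 23.8 CPM in QZ1-lo, most of it from Mitf in every library. Venous endothelial genes were higher in 5 of 5 cases, lymphatic ones in 4 of 5 and arterial ones in 3 of 6, so the difference was shared by endothelial genes beyond the capillaries.

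Car4 also belongs to the genes of alveolar macrophages, and although the sort discarded CD45+ and CD11b+ cells, RNA of such cells was present in both populations. Ptprc, which encodes CD45, was at 130 ± 64.1 CPM in QZ1-hi and 125 ± 30.0 CPM in QZ1-lo (SD, n = 4). None of 12 alveolar macrophage markers was called by edgeR, DESeq2 or limma, and 0 had an unadjusted edgeR p under 0.05, with log2 fold changes of 0.06 to 0.66 (median 0.41). Their summed level was 3972, 2686, 1598 and 7032 CPM in QZ1-hi replicates 1 to 4 and 3667, 2250, 1164 and 4475 CPM in QZ1-lo replicates 1 to 4. Chil3 had the most counts of the 12 in every library. In both populations the sum was lowest in replicate 3, whereas Car4 was lowest in replicate 1. The library with the highest sum was replicate 4 in QZ1-hi and replicate 4 in QZ1-lo, as it was for Car4. Sirpa and Lpl, which myeloid cells also express, were highest there as well, at 358 and 555 CPM in QZ1-hi replicate 4 and 227 and 375 CPM in QZ1-lo replicate 4.

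The genes whose deviations from the population means were most like those of Car4 included genes of the red cell lineage, although the study treated the lung suspension with a buffer that lyses red cells before the sort. Over the 8 libraries, and out of all non-member genes tested, Pearson's r was among the 5 highest for Bpgm (0.980), Mkrn1 (0.978), Hba-a2 (0.971) and Hbb-b1 (0.970). Bpgm encodes the enzyme that makes 2,3-bisphosphoglycerate in red cells, and Hba-a2 and Hbb-b1 encode globin chains, near-identical copies of which may share reads. The summed level of 7 erythroid genes was 167, 540.4, 468 and 1252 CPM in QZ1-hi replicates 1 to 4 and 354, 1974, 1196 and 3852 CPM in QZ1-lo replicates 1 to 4. Within QZ1-hi, and separately within QZ1-lo, the libraries with the lowest and the highest sum were also those with the lowest and the highest Car4. None of the 7 was called between the populations by edgeR, DESeq2 or limma, and 3 had an unadjusted edgeR p under 0.05, with lower levels in QZ1-hi (median log2 fold change of the 7, -1.49). The within-population r of Car4 was 0.95 with the mean of the erythroid genes, 0.66 with that of the macrophage markers, -0.87 with that of the alveolar type 1 markers and -0.39 with that of the pan-endothelial genes. The erythroid list holds Bpgm, Hba-a2 and Hbb-b1, which are among the 5 genes most like Car4. Its r is therefore high by selection and is no independent support. The 8 libraries share depth and scaling, and which of them came from the same mouse is not known, so r may not rest on 8 independent points. Both the erythroid and the macrophage list were drawn up after these values were seen, and the part of such RNA in the level of Car4 was not tested.

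**Figure D4:**
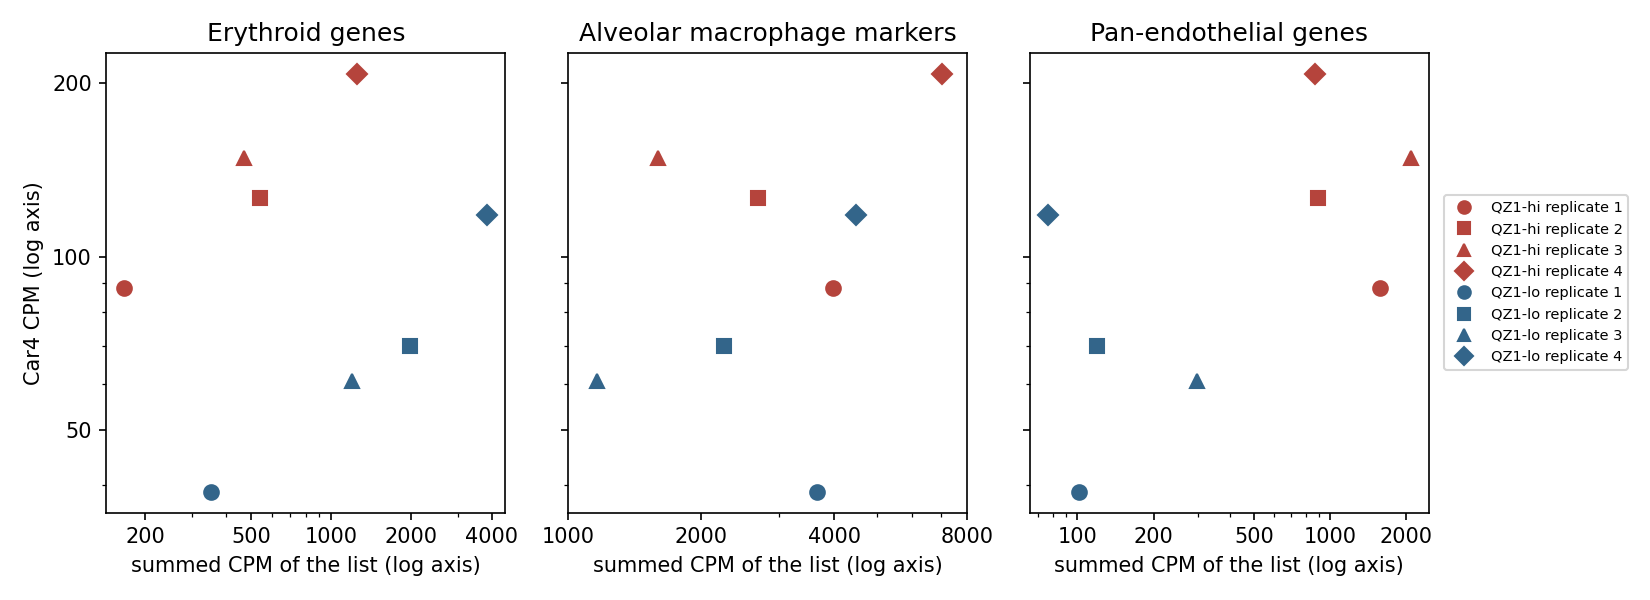
Car4 level (CPM, log axis) against the summed CPM (log axis) of 7 erythroid genes, 12 alveolar macrophage markers and 16 pan-endothelial genes, with 1 point per library, red for QZ1-hi and blue for QZ1-lo. Within each population Car4 is lowest in replicate 1 and highest in replicate 4, as are the erythroid genes, while the endothelial sum of replicate 4 is the lowest of its population.

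The other 8 markers were closer to the endothelial genes than Car4 was, as a description over the same 8 libraries. Their within-population r with the mean of the pan-endothelial genes was 0.99 for Plvap, 0.97 for Kit, 0.89 for Apln, 0.87 for Ednrb, 0.86 for Prx, 0.81 for Fibin, 0.77 for Tbx2 and 0.50 for Aplnr. Among the 5 genes most like Plvap were Mmrn2 (0.993), Cdh5 (0.989), Gna11 (0.987) and Pxdn (0.987), of which Mmrn2 and Cdh5 are endothelial. Car4 had r of -0.57 to 0.01 with the other 8 markers. Among the other aerocyte genes r was highest for Fibin and Prx, at 0.97, and lowest for Ednrb and Tbx2, at 0.44. Among the general capillary genes it was highest for Plvap and Kit, at 0.95, and lowest for Aplnr and Kit, at 0.46. Across the classes r was highest for Apln and Plvap, at 0.90, and lowest without Car4 for Tbx2 and Aplnr, at 0.11. Fibroblast markers moved with genes of both classes too. Their r was 0.92 for Ednrb, 0.91 for Fibin, 0.84 for Prx, 0.83 for Apln and 0.46 for Tbx2. With the general capillary markers r was 0.76 for Plvap, 0.58 for Kit and 0.42 for Aplnr.

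Promoter windows from RefSeq (GRCm38.p6, 250 bases before to 50 bases after the start) were found for 6 of the 9 markers: Apln, Car4, Ednrb, Fibin, Kit and Prx. None was matched for Tbx2, Plvap and Aplnr. They were searched on both strands for GGAAG and for CCGGAA, core motifs of the ETS transcription factors that are widely used in endothelial genes. The windows of Car4 and Prx are shown because Car4 had the smallest log2 fold change of the aerocyte markers and Prx a large one without overlap, with the matches of either motif in capitals, read 5′ to 3′ on the strand of the gene.
Car4 (chr11:84957504-84957803, plus strand): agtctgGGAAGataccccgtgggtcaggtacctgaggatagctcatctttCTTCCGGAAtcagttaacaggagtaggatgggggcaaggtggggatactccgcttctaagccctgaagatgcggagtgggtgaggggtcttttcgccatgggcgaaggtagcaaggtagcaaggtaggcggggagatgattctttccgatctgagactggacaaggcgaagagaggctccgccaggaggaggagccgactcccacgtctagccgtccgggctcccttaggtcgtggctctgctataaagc
Prx (chr7:27499074-27499373, plus strand): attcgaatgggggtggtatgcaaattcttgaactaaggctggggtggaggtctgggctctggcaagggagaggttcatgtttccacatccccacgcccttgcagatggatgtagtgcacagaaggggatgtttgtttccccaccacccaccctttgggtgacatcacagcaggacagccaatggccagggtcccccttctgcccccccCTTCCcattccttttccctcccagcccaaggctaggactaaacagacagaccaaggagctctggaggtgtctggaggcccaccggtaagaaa
A GGAAG was present in the windows of all 6 genes, as in 71.4% of 32851 windows. CCGGAA was found only in Car4 among the 6, in a palindromic stretch that reads the same on both strands and overlaps a GGAAG match, against 14.9% of all windows. The match is a description of these letters and not a site.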

How the data were processed

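RNA of the sorted populations was sequenced in bulk (4 QZ1-hi and 4 QZ1-lo libraries, SMARTer Stranded Total RNA kit, NextSeq500). The values are raw counts per Entrez gene ID as deposited by the authors, whose methods name Rsubread for counting and whose processing notes name the build mm10 and DESeq2. The aligner, annotation and strand setting are not given in the sources used here. Of 27179 IDs, 25275 matched a mouse symbol and 1904 did not. Groups came from the condition labels.

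Counts were filtered with filterByExpr (minimum count 10, minimum total 15), which left 15583 genes, TMM-scaled and tested in edgeR 4.0.16 (R 4.3.3) by quasi-likelihood on the 2 populations with no covariate, with Benjamini-Hochberg adjustment over all genes tested and a threshold of 0.05. The common dispersion was 0.113. Each standard error was derived from the estimate and its F statistic. A second fit scaled libraries to the geometric mean of 16 pan-endothelial genes (pseudocount 0.5). Log2 CPM used a prior count of 2. Alternatives were DESeq2 1.42.0, limma 3.58.1 voom, other scalings, filters and thresholds, and each library left out. The scripts were tested on simulated data. A floor of 3 counts corresponds to 0.0894 to 0.179 CPM, which covers counting error only.

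The 9 members, the gene lists and the tests were chosen with earlier results of these data known. The genes named were all members, all genes of the other aerocyte and general capillary lists, pathway members and relatives that passed the filter, markers of other cells that use a member, and the 5 genes most like Car4 and Plvap, of which 1 each is not reported here. The lists of alveolar macrophage and erythroid genes were added after the values were seen.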

Additional observations from a re-analysis of the deposited data

Results flagged for a closer look

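Of 48 groups of 4 libraries checked for 1 library far from the other 3, 5 stood out, where chance alone gives about 1 in 20. In QZ1-hi replicate 3 Fibin was at 22.9 CPM (4.57 to 6.96 in the others), Prx at 200.0 CPM (93.5 to 106) and Pmp22 at 86.5 CPM (43.2 to 48.9), all aerocyte genes. In QZ1-lo replicate 3 Kit was at 15.6 CPM (4.38 to 5.73) and Sema3c at 107 CPM (66.5 to 70.6), both general capillary genes. Each of these libraries had the highest pan-endothelial sum of its population, and the part of that in the values was not tested.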

How the results depend on the processing

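The 9 markers stayed higher in QZ1-hi under every alternative that tested them, with 5 to 9 of 9 called. With each library left out in turn 5 to 8 were called, and with an adjusted p under 0.01 the number was 5. At least 10 counts in every library left Ednrb and Fibin untested. Scaling by library size only moved the median of all genes from 0.02 to -0.44 and changed the numbers called to 883 higher and 2509 lower; an adjusted p under 0.01 gave 902 and 665. That scaling reversed, without a call, Cyp4b1 (-0.19), Sirpa (-0.072), Lpl (-0.026), Ece1 (-0.40), Car5b (-0.23) and Car13 (-0.021). Leaving out single libraries gave ranges across 0 for Cyp4b1 (-0.18 to 0.47), Edn1 (-0.34 to 0.0040), Ece1 (-0.14 to 0.17), Car2 (-0.33 to 0.057), Car5b (-0.0050 to 0.46) and Car9 (-0.034 to 1.78), and on the endothelial scale for Ednrb (-0.52 to 0.38) and Fibin (-0.15 to 0.72). The cause was not tested. Relative to endothelial genes Car4 was called lower under all alternatives run (-3.06 to -1.66 with single libraries left out). On that scale 93.6% of all genes tested were called lower in the main fit, with a median log2 fold change of -3.44. No paired analysis was possible because the labels give no replicate numbers shared by the populations, the numbers used here follow accession order, and no source links a library to a mouse. Ednrb and Fibin are limited by depth in QZ1-lo, where single libraries held 2 or 3 reads.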
